A study of Solanum lycopersicum with 6 samples.

Results

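The genes described here are 37 tomato identifiers listed as a photosynthesis module: chlorophyll a/b-binding genes, Rubisco small subunit genes and a few photosystem subunit genes. The list is matched by identifier and its rule uses no measured value. All 37 had a row among the 34722 genes of the deposited table. No names come with the identifiers, either in that table or in RefSeq's gene table for assembly SLM_r2.1 (0 of 37 matched). Which identifier belongs to which of the 3 classes could therefore not be checked, and single identifiers are given without a name or role. RNA was sequenced from 6 libraries of tomato (Solanum lycopersicum) shoot apices, in 3 groups of 2. The lfs group was the shoot apical meristem of the leafless mutant, whose allele the labels do not name. The TIBA group was the meristem of pin-like shoots obtained by spraying with TIBA at 1 mM (triiodobenzoic acid, which blocks polar transport of auxin). The WT group was the wild-type meristem together with its 2 youngest leaf primordia. All plants were greenhouse seedlings, 14 to 18 days old, fixed in acetone before dissection. The genotype or treatment and the presence of primordia differ together, so they cannot be told apart.

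Chlorophyll a/b-binding proteins are nuclear-encoded antenna proteins that capture light for photosystems I and II in the chloroplast. The small subunit of Rubisco, the enzyme that fixes CO2, is also encoded by a small family of nuclear genes, while its large subunit is encoded in the chloroplast. Transcripts of both families are abundant in green leaves and are controlled by light and by the state of the plastid. Meristem cells carry small, little-differentiated plastids, and photosynthetic chloroplasts mature as leaf primordia grow.

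The libraries held 19914834 and 26054787 gene-assigned reads in lfs, 25774076 and 17640302 in TIBA, and 23888387 and 25022897 in WT. The labels number the repeats without saying whether they came from separate plants, so the spread behind each p-value is that of these libraries and may be technical. TIBA replicate 2 was the highest library for 26.0% of all genes tested and the lowest for 25.3%, against 13.1% to 17.9% for each of the other 5 libraries at either end. In bulk tissue, fewer cells that transcribe a gene and less RNA per cell cannot be told apart. Marker lists for epidermis, vasculature, meristem and primordia could not be filled without gene names, so the makeup of the samples was not measured.

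Taken as a sum, the photosynthesis identifiers drew more reads in both leafless groups than in WT, and the WT libraries, the only ones with leaf primordia, had the lowest sums. They took 0.744% (exact 95% binomial interval 0.741 to 0.748) and 0.525% (0.522 to 0.528) of the gene-assigned reads in lfs replicates 1 and 2. In the TIBA replicates the shares were 0.721% (0.718 to 0.725) and 1.11% (1.10 to 1.11). In WT they were 0.367% (0.365 to 0.370) and 0.399% (0.396 to 0.401). These intervals cover counting error only. Both lfs and both TIBA libraries lay above both WT libraries, while lfs and TIBA overlapped.

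The summed normalized count (reads divided by the authors' size factor of each library) was 130701 ± 27478 in lfs, 193943 ± 56734 in TIBA and 82617 ± 5447 in WT (SD, n = 2 each). That is 1.58 times WT in lfs and 2.35 times WT in TIBA. With 2 libraries against 2, an exact permutation test, two-sided, cannot go below p = 0.333, and no test of the sums was run. Solyc03g034220 alone gave 16.4 ± 1.17% of the sum in lfs, 14.2 ± 0.65% in TIBA and 14.3 ± 0.31% in WT (SD, n = 2 each). Without it the ratios were 1.54 for lfs over WT and 2.35 for TIBA over WT.

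**Figure D1:**
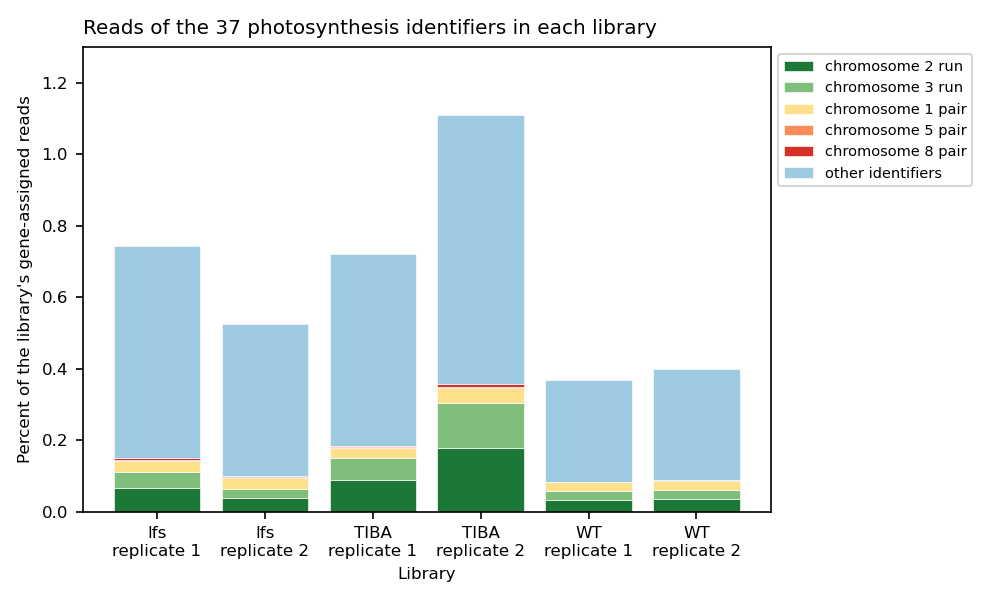
Percent of each library's gene-assigned reads (y axis, from 0) that fell on the 37 identifiers, for the 6 libraries (x axis), stacked by groups of neighbouring identifiers. The lfs bars reach 0.744% and 0.525% and the TIBA bars 0.721% and 1.11%, against 0.367% and 0.399% in WT.

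Of the 37 identifiers, 36 reached a normalized count of 10 in at least 2 libraries and were tested together with all 19807 genes that did. Solyc02g071030 had no read in any library, which allows a normalized count of up to 2.44 to 3.59 per library (3 reads). Solyc03g005790 passed this minimum through the lfs and TIBA libraries alone, so no p-value is given for its difference from WT. The counts of calls against WT include it wherever it was called. For the main limma fit these counts are also given without it. TIBA replicate 2 was the highest library for 32 of the 36 (26.0% of all genes tested), and WT replicate 1 was the lowest for 26 (17.9% of all genes tested). Normalized counts are not divided by transcript length, so they compare 1 gene across libraries and not different genes.

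**Figure D2:**
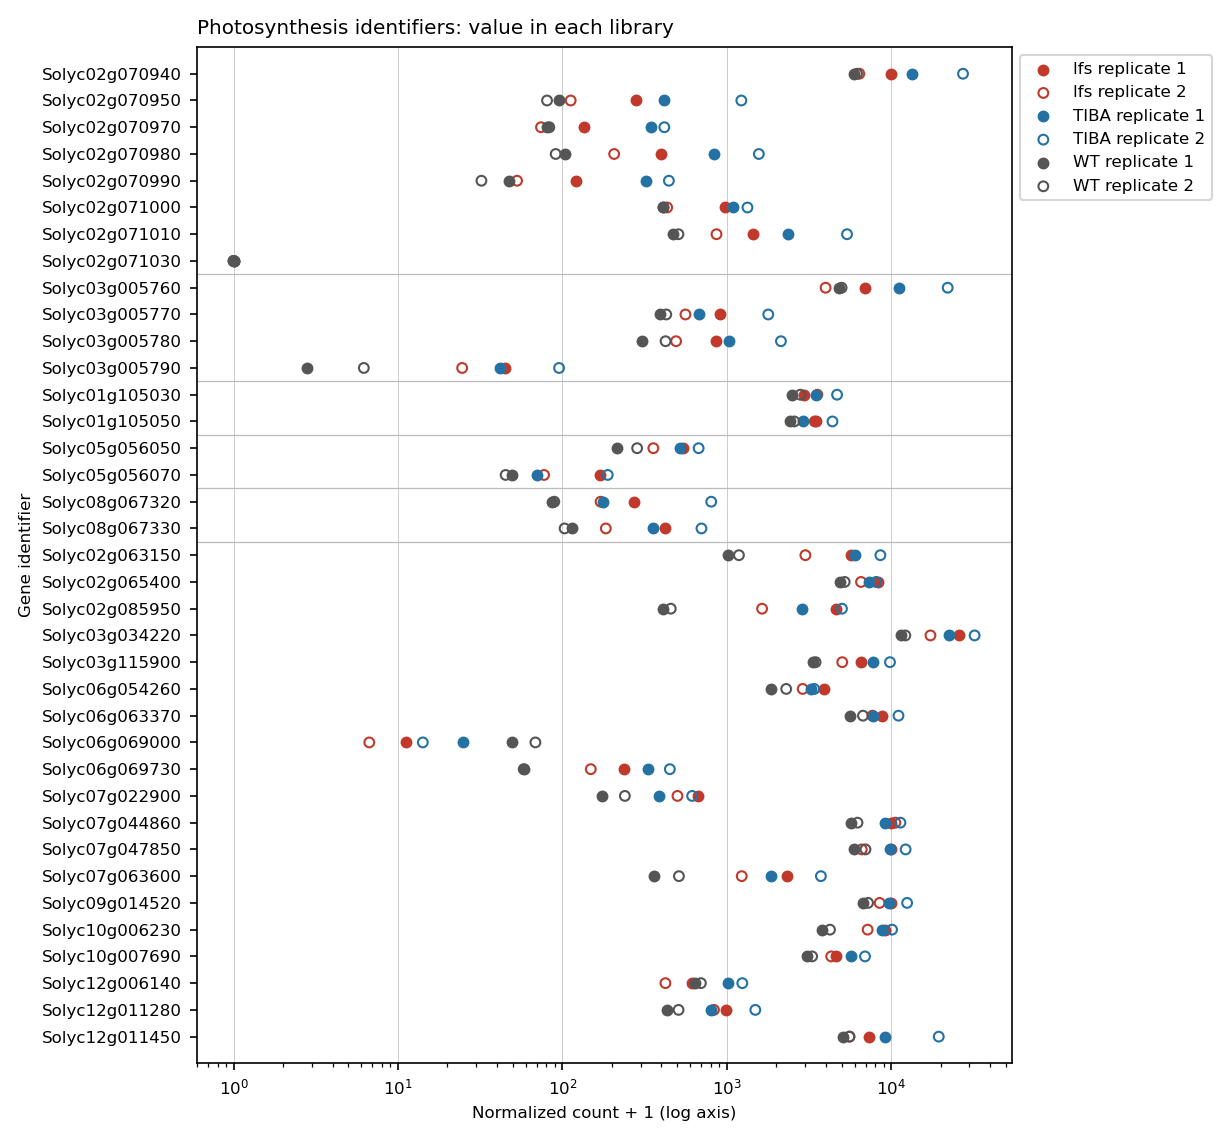
Normalized count plus 1 (log axis) of each of the 37 identifiers in the 6 libraries, with filled points for replicate 1 and open points for replicate 2. Horizontal lines part the chromosome 2 run, the chromosome 3 run, the 3 pairs and the other identifiers. In most rows the TIBA points (blue) lie to the right of the WT points (grey), and Solyc06g069000 shows the opposite order.

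Relative to WT, 11 of the 36 tested identifiers rose and 1 fell in the lfs apex, while 24 did not pass (limma, Benjamini-Hochberg adjusted p under 0.05 over all genes). Without Solyc03g005790 the count was 10 higher and 1 lower of 35, with a median log2 change of 0.80. Among all genes tested, 8.9% were called higher and 5.29% lower. The median log2 change of the identifiers was 0.81 (1.76-fold), against -0.0010 for all genes. At least 2-fold rises passed for 8 (6.39% of all genes), an at least 2-fold fall for 1 (2.99% of all genes), and 34 estimates lay above 0 (49.9% of all genes). Both lfs libraries lay above both WT libraries for 31 identifiers (33.6% of all genes) and below them for 2 (33.1% of all genes). The 8, the 34 and the 31 include Solyc03g005790. The 23 identifiers with estimates above 0 that did not pass ran up to a log2 value of 1.36.

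Solyc02g063150 had normalized counts of 5719 and 3010 in lfs, against 1012 and 1186 in WT. It rose 3.78-fold (log2 1.92, SE 0.31, limma adjusted p = 0.0088). Solyc02g085950 stood at 4654 and 1641 in lfs and at 408 and 456 in WT, a 6.40-fold rise (log2 2.68, SE 0.47, limma adjusted p = 0.012). Both lfs libraries exceeded both WT libraries for these identifiers, which were picked for their large called changes. The lfs libraries themselves lay far apart.

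Solyc07g063600 reached 2339 and 1233 normalized counts in lfs, against 362 and 511 in WT (log2 1.98, SE 0.40, limma adjusted p = 0.020). Solyc06g069730 reached 235 and 148 in lfs, against 57.5 and 57.2 in WT (log2 1.68, SE 0.29, limma adjusted p = 0.012). For Solyc03g005790 the counts were low, 43.6 and 23.6 in lfs and 1.80 and 5.20 in WT, where they came from 2 and 6 reads. These identifiers too were picked for large called changes, so groups that do not overlap follow from the pick. In each, lfs replicate 1 was above lfs replicate 2.

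The remaining identifiers that rose in lfs did so by smaller amounts. Solyc02g070980 rose by a log2 value of 1.57, Solyc07g022900 by 1.50 and Solyc10g006230 by 1.01. Solyc07g044860, Solyc03g115900 and Solyc06g054260 rose by 0.79, 0.76 and 0.70. The call of Solyc06g054260 was lost with edgeR (TMM), with no filter, with a mean of at least 100 and with the replicate block. It held with edgeR on the authors' size factors. The calls of Solyc02g070980 and Solyc03g115900 were also lost with the replicate block. The adjusted p of these 6 ran from 0.010 to 0.049 (limma). Solyc07g044860 was the steadiest of them between replicates, with 10049 and 10622 normalized counts in lfs, against 5677 and 6250 in WT.

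The lfs calls depended on single libraries. The limma fit took the spread of each gene from the 3 groups together. For the identifiers the median SD on the log2 scale was 0.46 in lfs and 0.39 in TIBA, against 0.10 in WT. The p-values thus rest in part on the small WT spread, and with a WT library left out the spread within groups comes from lfs and TIBA alone. The part of this in the changes of the calls given next was not tested. With all libraries 12 identifiers, Solyc03g005790 among them, and 14.2% of all genes were called. The number of identifiers was 0 without WT replicate 1 (limma, with 12 higher and 1 lower at an unadjusted p under 0.05) and 2 without WT replicate 2, where 2.73% and 4.35% of all genes were called. Leaving out lfs replicate 1 gave 3 (5.06% of all genes) and lfs replicate 2 gave 9 (7.73%). Leaving out either TIBA library gave 19 (22.5% of all genes for replicate 1 and 22.7% for replicate 2). The calls over all genes thus moved in the same direction as those of the module. None of the 12 calls held in all 6 of these fits. The call of Solyc02g063150 ended without WT replicate 1 alone, and that of Solyc02g085950 without either WT library. The other 10 calls ended without WT replicate 1 and at least 1 more library, lfs replicate 1 or 2 among them. With 1 library left out, the log2 change lay between 1.46 and 2.38 for Solyc02g063150, 1.93 and 3.43 for Solyc02g085950, 1.52 and 2.44 for Solyc07g063600, and 1.35 and 2.02 for Solyc06g069730. For Solyc02g070980 it lay between 1.09 and 2.05. The median over all 36 identifiers was 0.47 when lfs replicate 1 was left out and 1.13 when lfs replicate 2 was left out. Dropping a WT library moved this median less from its value of 0.81, to 0.73 for replicate 1 and 0.86 for replicate 2. On the recovered reads, edgeR called 10 identifiers higher and 1 lower (8.51% and 5.35% of all genes), and DESeq2 called 18 higher and 1 lower (11.1% and 7.75%). The 10 and the 18 include Solyc03g005790.

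In the TIBA pin 28 of the 36 tested identifiers rose against WT, 0 fell and 8 did not pass (limma). Without Solyc03g005790 the count was 27 of 35, with a median log2 change of 1.32. All 36 had an unadjusted p under 0.05 (34.9% of all genes), 35 of them higher and 1 lower, and edgeR and DESeq2 also called 0 lower (7.07% and 10.1% of all genes). Among all genes tested, 10.8% were called higher and 7.77% lower. The median log2 change was 1.34 (2.54-fold), against 0.015 for all genes, and 22 of the 28 rose at least 2-fold (7.27% of all genes). Both TIBA libraries lay above both WT libraries for 35 identifiers (34.1% of all genes) and below them for 1 (32.2% of all genes). The 28, the 22 and the 35 include Solyc03g005790.

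**Figure D3:**
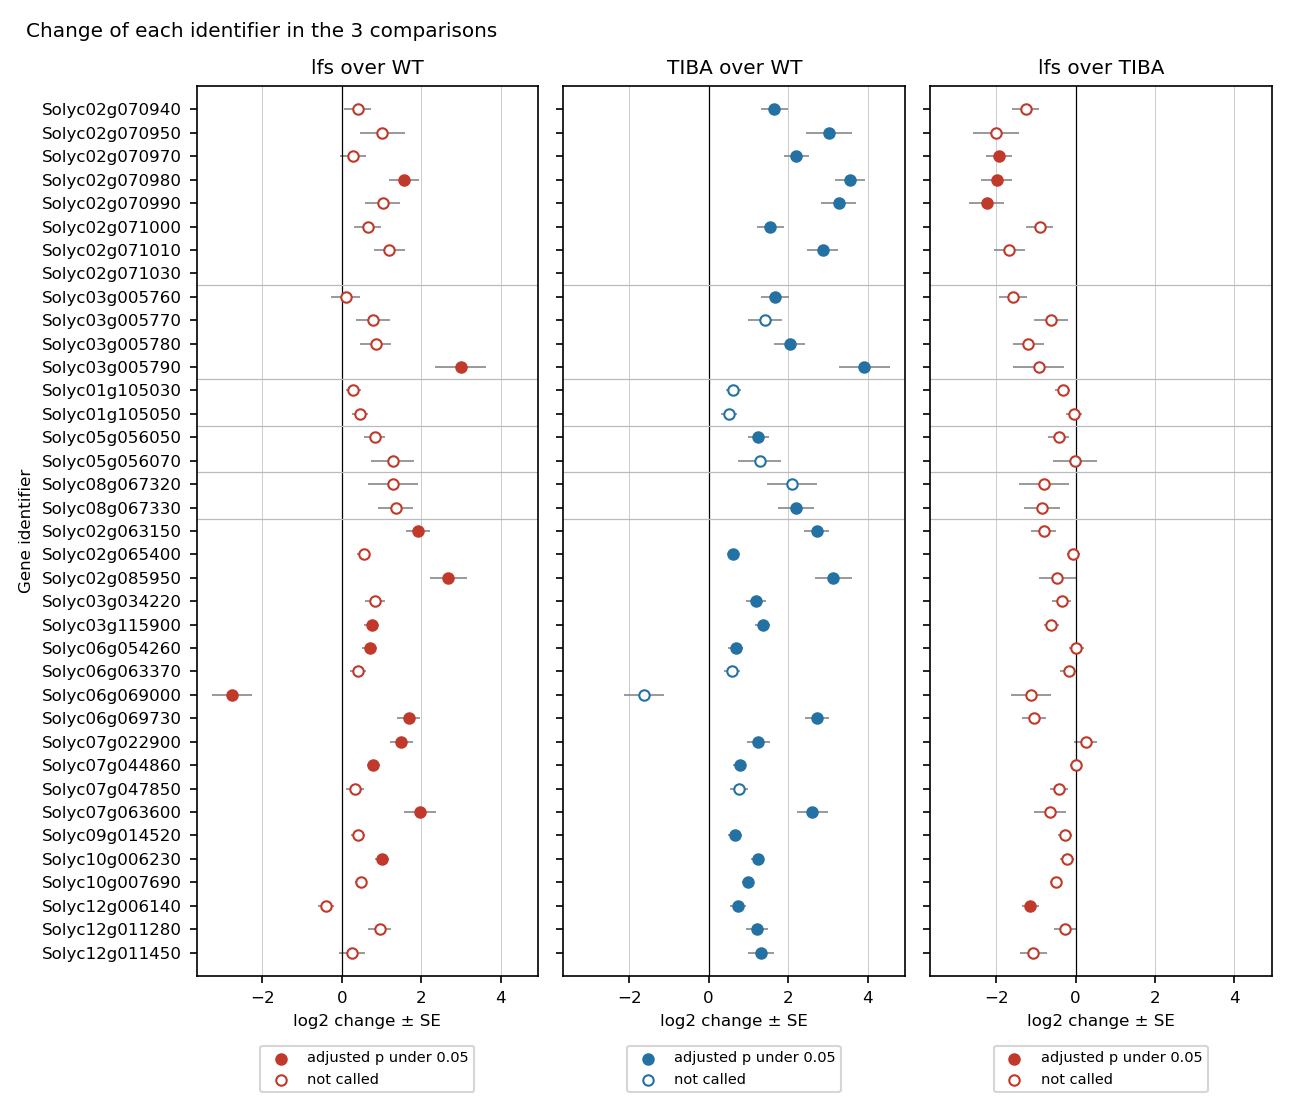
Log2 change ± SE (x axis) of each identifier for lfs over WT, TIBA over WT and lfs over TIBA, with filled points for an adjusted p under 0.05 (limma) and open points for no call. Filled points number 12, 28 and 4 in the 3 panels. Solyc06g069000 is the filled point left of 0 in the first panel. Solyc03g005790, filled for lfs over WT and TIBA over WT, passed the count minimum through lfs and TIBA alone.

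Solyc03g005790 had 40.5 and 94.6 normalized counts in TIBA, against 1.80 and 5.20 in WT. Its log2 difference depended on the pseudocount, at 4.11 with 0.5, 3.92 with 1 and 3.02 with 5. Solyc02g070980 had 831 and 1568 in TIBA, against 102 and 90.1 in WT, a rise of 11.8-fold (log2 3.56, SE 0.39, limma adjusted p = 0.0026). Solyc02g070990 had 322 and 444 in TIBA, against 46.7 and 31.2 in WT, a rise of 9.67-fold (log2 3.27, SE 0.44, limma adjusted p = 0.0051). All of these were picked as the largest called changes in TIBA against WT, so a wide gap from WT follows from the pick.

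Solyc02g085950 stood at 2864 and 5026 in TIBA and at 408 and 456 in WT, a rise of 8.78-fold (log2 3.14, SE 0.47, limma adjusted p = 0.0067). Solyc02g070950 stood at 414 and 1227 in TIBA and at 94.3 and 79.7 in WT (log2 3.02, SE 0.57, limma adjusted p = 0.014). Solyc02g071010 stood at 2374 and 5397 in TIBA and at 470 and 508 in WT (log2 2.87, SE 0.39, limma adjusted p = 0.0051). TIBA replicate 2 was the higher TIBA library for each of them, by more than the WT libraries differed.

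Solyc06g069730 rose by a log2 value of 2.73, Solyc02g063150 by 2.72 and Solyc07g063600 by 2.61 in TIBA pins, with adjusted p-values of 0.0025, 0.0030 and 0.0073 (limma). Solyc02g063150 had 6067 and 8611 normalized counts in TIBA, against 1012 and 1186 in WT. At the other end, Solyc02g065400 rose 1.53-fold with an adjusted p of 0.040 (limma). The 8 identifiers that did not pass were Solyc03g005770, Solyc07g047850, Solyc08g067320, Solyc05g056070, Solyc01g105030, Solyc01g105050, Solyc06g063370 and Solyc06g069000. The first 7 of these had estimates between 0.51 and 2.10 on the log2 scale and adjusted p-values up to 0.14 (limma).

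The 6 identifiers with the most normalized counts over all libraries rose in TIBA pins by log2 values of 0.66 to 1.68. Solyc03g034220 had 22600 and 32241 normalized counts in TIBA, against 11469 and 12213 in WT (log2 1.19, SE 0.24, limma adjusted p = 0.018). In lfs it had 25905 and 17363, and its log2 value of 0.84 over WT did not pass (SE 0.24, limma adjusted p = 0.062). Solyc09g014520 had 9717 and 12521 in TIBA, against 6714 and 7243 in WT (log2 0.66, SE 0.17, limma adjusted p = 0.040), and 10045 and 8519 in lfs. Solyc12g011450 had 9187 and 19507 in TIBA, against 5119 and 5578 in WT (log2 1.32, SE 0.33, limma adjusted p = 0.034). Its lfs libraries, at 7393 and 5587, did not pass against WT (log2 0.27, SE 0.33, limma adjusted p = 0.65). Solyc07g044860 had 9156 and 11406 in TIBA, against 5677 and 6250 in WT (log2 0.78, SE 0.16, limma adjusted p = 0.018).

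The 28 TIBA calls, beside 18.6% of all genes, became 6 without WT replicate 1 (3.33% of all genes) and 10 without WT replicate 2 (3.55%). Leaving out TIBA replicate 2 gave 16 (12.9%), and leaving out TIBA replicate 1 gave 34 higher and 1 lower (33.1%). Here too the calls over all genes moved in the same direction. Dropping a WT library left the median log2 change of the identifiers at 1.34 for replicate 1 and 1.47 for replicate 2. Dropping a TIBA library gave 1.79 for replicate 1 and 1.03 for replicate 2. Solyc02g070980, Solyc02g070990, Solyc02g071010, Solyc06g069730, Solyc03g115900 and Solyc02g063150 were called whichever 1 library was left out. Solyc02g070970, Solyc07g063600 and Solyc10g006230 lost the call without WT replicate 1 alone. The calls of Solyc02g085950, Solyc02g070950, Solyc02g070940 and Solyc07g044860 ended without either WT library, and those of Solyc03g034220, Solyc03g005760, Solyc02g065400, Solyc05g056050 and Solyc08g067330 also without TIBA replicate 2. The calls of Solyc09g014520 and Solyc12g011450 held in 1 of the 6 fits, the fit without TIBA replicate 1, and ended with only the TIBA and WT libraries fitted. With 1 library left out, the log2 change lay between 2.24 and 3.81 for Solyc02g070950, 2.28 and 3.46 for Solyc02g071010, and 0.78 and 1.87 for Solyc12g011450.

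The chromosome 2 run, 8 neighbouring identifiers from Solyc02g070940 to Solyc02g071030, had the largest median change of the runs and pairs in TIBA. The chromosome is taken from the number in each identifier. All 7 members with reads rose in TIBA against WT (10.8% of all genes tested were called higher). Their median log2 change was 2.87, with a range of 1.56 to 3.56 (limma, adjusted p up to 0.022). In lfs against WT, Solyc02g070980 alone among the 7 passed (8.9% of all genes were called higher), and the median log2 change was 1.02. Solyc02g070940, with most reads of the run, had 10053 and 6412 normalized counts in lfs, 13392 and 27399 in TIBA, and 5930 and 6206 in WT. It rose 3.16-fold in TIBA (log2 1.66, SE 0.35, limma adjusted p = 0.019), and its lfs value of 0.40 over WT did not pass (SE 0.35, limma adjusted p = 0.50).

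The run gave 8.94% and 7.33% of the module's reads in lfs, 12.2% and 16.1% in TIBA, and 9.05% and 8.57% in WT. The exact 95% binomial intervals of these shares reached at most 0.234 percentage points to either side. Both TIBA libraries lay above the other 4 in this share. The chromosome 3 run (Solyc03g005760 to Solyc03g005790, 4 members) gave 5.86% and 4.56% in lfs, 8.45% and 11.2% in TIBA, and 7.05% and 6.78% in WT. Here the lfs libraries lay below WT and the TIBA libraries above it. Its members had a median log2 change of 0.83 in lfs and 1.86 in TIBA against WT, with Solyc03g005790 included. Solyc03g005760, with most of its reads, had 6978 and 3995 in lfs, 11236 and 22109 in TIBA, and 4854 and 5002 in WT. It rose 3.20-fold in TIBA (log2 1.68, SE 0.36, limma adjusted p = 0.020), while lfs straddled WT.

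Neighbouring identifiers may be near-identical gene copies that share reads. How the counting treated reads that fit several genes is not given in the sources used here, so the split of reads within a run or pair is uncertain. In the pairs on chromosomes 1, 5 and 8, neither member passed in lfs against WT, with log2 values of 0.29 to 1.36 (14.2% of all genes passed). In TIBA against WT, Solyc05g056050 and Solyc08g067330 rose (log2 1.25 and 2.19, limma adjusted p = 0.019 and 0.018), beside 10.8% of all genes. Their partners and the chromosome 1 pair did not pass.

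Against the TIBA pin, 4 of the 36 identifiers were lower in lfs, 0 were higher and 32 did not pass (limma). At an unadjusted p under 0.05, 15 were lower and 0 higher (23.1% of all genes in either direction), and edgeR and DESeq2 also called 0 higher (1.7% and 4.5% of all genes). Among all genes tested, 2.64% were called lower and 1.97% higher in lfs. The median log2 difference was -0.63, against 0.018 for all genes, and 3 of 36 estimates were above 0 (51.8% of all genes). Both lfs libraries lay below both TIBA libraries for 16 identifiers (23.6% of all genes) and above them for 0 (25.3% of all genes).

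Of the 4, Solyc02g070970, Solyc02g070980 and Solyc02g070990 belong to the chromosome 2 run. Solyc02g070970 had 134 and 73.2 normalized counts in lfs, against 345 and 417 in TIBA (log2 -1.93, SE 0.32, limma adjusted p = 0.023), and 79.9 and 82.3 in WT. For Solyc02g070980 the lfs values were 400 and 206, against 831 and 1568 in TIBA (log2 -1.99, SE 0.39, limma adjusted p = 0.036). For Solyc02g070990 they were 121 and 52.0, against 322 and 444 in TIBA (log2 -2.24, SE 0.44, limma adjusted p = 0.037). The lfs and TIBA groups did not overlap for these 3, which were picked because their difference passed. Solyc12g006140 was the remaining one, with 616 and 423 in lfs, 1013 and 1244 in TIBA, and 644 and 696 in WT. It was lower in lfs than in TIBA (log2 -1.14, SE 0.21, limma adjusted p = 0.030) and rose in TIBA against WT (log2 0.74, SE 0.21, limma adjusted p = 0.047). That rise was not called with no filter or without TIBA replicate 2, WT replicate 1 or WT replicate 2. Its lfs value against WT was -0.39 (SE 0.21, limma adjusted p = 0.26), with both lfs libraries below both WT libraries.

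None of the 4 identifiers stayed called in every fit that left out 1 library. The number called was 0 when lfs replicate 2, TIBA replicate 2 or either WT library was left out, with 0.526%, 3.18%, 1.84% (WT replicate 1) and 1.82% (WT replicate 2) of all genes called. It was 4 without lfs replicate 1 (3 of them the same identifiers, 2.17% of all genes) and 15 without TIBA replicate 1 (13.9%), against 4.6% of all genes with every library. It was also 0 when only the lfs and TIBA libraries were fitted (1.86% of all genes). In these fits no identifier was called higher in lfs, and at an unadjusted p under 0.05 between 6 and 23 were lower. With all libraries, edgeR called 4 lower (2.47% of all genes) and DESeq2 13 (5.63%). With 1 library left out, the log2 difference lay between -2.36 and -1.50 for Solyc02g070970, -2.47 and -1.51 for Solyc02g070980, -2.84 and -1.64 for Solyc02g070990, and -1.41 and -0.86 for Solyc12g006140.

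Of the 19 identifiers outside the runs and pairs, 9 rose, 1 fell and 9 did not pass in lfs against WT (median log2 change 0.76). Among all genes tested, 8.9% were called higher and 5.29% lower. In TIBA against WT 16 of the 19 rose and 3 did not pass (median 1.19), against 10.8% of all genes called higher. Their median log2 difference between lfs and TIBA was -0.43, and 1 of the 19 passed (4.6% of all genes). A single call among 19 cannot be set apart from such a share. The 3 identifiers whose lfs estimate was above TIBA all belong here, and none of them passed. Solyc07g022900 had 671 and 501 normalized counts in lfs, 384 and 615 in TIBA, and 173 and 239 in WT. Its log2 difference between lfs and TIBA was 0.25 (SE 0.28, limma adjusted p = 0.63). Solyc06g054260 had 3914 and 2899 in lfs, 3237 and 3409 in TIBA, and 1865 and 2302 in WT, with a difference between lfs and TIBA of 0.020 (SE 0.19, limma adjusted p = 0.96). For Solyc07g044860 that difference was 0.016 (SE 0.16, limma adjusted p = 0.97). In all 3 the lfs and TIBA libraries overlapped. Both groups lay above WT in these 3, as in 31 of the 36 identifiers (21.8% of all genes tested). These 3 were picked after their values were seen.

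Solyc06g069000 was the 1 identifier called lower in lfs than in WT, and the 1 identifier with an estimate below 0 in TIBA against WT. It had normalized counts of 10.1 and 5.69 in lfs, 24.0 and 13.2 in TIBA, and 48.5 and 67.6 in WT, from 10 and 7, 29 and 11, and 54 and 78 reads. It fell in lfs to a level 6.75-fold lower than in WT (log2 -2.76, SE 0.51, limma adjusted p = 0.014). In TIBA it was at -1.63 against WT (SE 0.51, limma adjusted p = 0.065), with both TIBA libraries below both WT libraries. The lfs call ended without lfs replicate 2 or either WT library. With 1 library left out the log2 change lay between -3.12 and -2.39. The TIBA value was called with a pseudocount of 5 (log2 -1.44, limma adjusted p = 0.045) or without TIBA replicate 1 (log2 -2.04, limma adjusted p = 0.034).

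Replicate libraries of lfs and of TIBA lay further apart for the module than for genes in general. For the 36 identifiers the median SD on the log2 scale was 0.46 in lfs, 0.39 in TIBA and 0.10 in WT (n = 2 each), against 0.16, 0.23 and 0.092 for all genes tested. The identifiers moved together: lfs replicate 1 was above replicate 2 for 34 of 36 (49.8% of all genes), by a median of 0.66 log2 units. TIBA replicate 2 was above replicate 1 for 35 of 36 (52.2% of all genes), by a median of 0.51. In WT replicate 2 was above replicate 1 for 30 of 36 (51.1% of all genes), by a median of 0.11. In lfs and in TIBA the library with more module transcript was also the one with fewer reads, 19914834 against 26054787 in lfs and 17640302 against 25774076 in TIBA. In WT it was the deeper one. The part of depth in these differences was not tested.

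**Figure D4:**
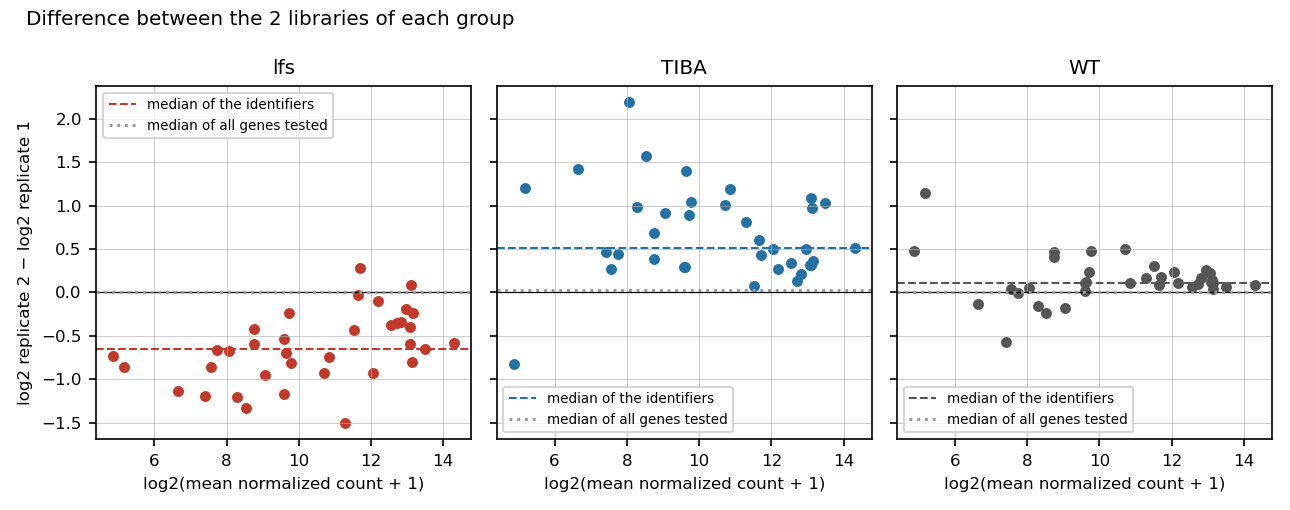
Difference between replicate 2 and replicate 1 on the log2 scale (y axis) against the log2 mean normalized count plus 1 (x axis) of the 36 tested identifiers, in lfs, TIBA and WT. Dashed lines give the median of the identifiers and dotted lines that of all genes tested. Most lfs points lie below 0 (median -0.66) and most TIBA points above it (median 0.51), while the medians of all genes stay near 0.

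In the authors' deposited table, 11 of the 36 identifiers passed an adjusted p of 0.05 as higher and 1 as lower in lfs against WT (7.0% and 4.6% of the genes with an adjusted p there). The authors' deposited table for TIBA against WT has 29 higher and 0 lower (8.3% and 5.96%), and for lfs against TIBA 0 higher and 7 lower (2.34% and 3.3%). The 11 and the 29 include Solyc03g005790. The authors' calls rest on the same 6 libraries, and they are not all of the same identifiers as the limma calls. In lfs against WT, Solyc07g063600 and Solyc06g054260 did not pass there (authors' DESeq2 adjusted p = 0.057 and 0.053). Solyc03g034220 and Solyc08g067330 passed instead (0.013 and 0.014). In TIBA against WT, Solyc12g006140 and Solyc06g054260 did not pass there (0.065 and 0.062), while Solyc01g105030, Solyc03g005770 and Solyc08g067320 did.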

How the data were processed

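RNA from 6 tomato shoot apex libraries was sequenced (Illumina TruSeq RNA, per the labels' protocols). The submitters' processing notes name TopHat2 (2.0.10), HTSeq (0.6.1p1) and DESeq2 (1.6.3); genome build, annotation and settings are not given in the labels or files used here. Deposited values are the authors' DESeq2-normalized counts, a signal equal to each library's counts divided by 1 size factor, per the file headers. For the 3 comparisons the authors also deposited a log2 fold change, a p-value and its adjusted value per gene, per the file headers. All 208332 values (100%) were whole multiples, within 0.001 reads, of 1 read's worth, so read counts were recovered; edgeR with TMM on those reads called 2744 genes for lfs against WT, 3475 for TIBA against WT and 825 for lfs against TIBA.

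The main test was limma (3.58.1, R 4.3.3) with trend and robust moderation on log2(normalized count + 1), so folds of genes with few reads are understated. The 3 groups were fitted together. It covered the 19807 genes with a normalized count of at least 10 in at least 2 libraries, with Benjamini-Hochberg adjustment over all of them and calls at 0.05. The pipeline was also run on simulated counts with known changes. There each gene varied independently, so a shift of the whole module between replicates, as seen here, was not covered. Alternatives were pseudocounts of 0.5 and 5, no filter, a mean of at least 100, edgeR (4.0.16), DESeq2 (1.42.0), a replicate block, the compared groups alone, and each library left out in turn.

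The members, lists and tests were chosen with earlier results of these data known. Per-library values are printed for the 6 largest called changes in each comparison, the 6 highest mean normalized counts and any call against the majority, with a few values of other members chosen after seeing them. Lists of other photosynthesis genes and of tissue markers, planned by description, could not be filled because no identifier has a description.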

Additional observations from a re-analysis of the deposited data

Results flagged for a closer look

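The 4 identifiers that differed between the 2 leafless groups by a direct test (limma, lfs over TIBA) are listed here because the test of the difference itself passed. The log2 difference was -1.93 for Solyc02g070970, -1.99 for Solyc02g070980, -2.24 for Solyc02g070990 and -1.14 for Solyc12g006140. None of the 4 was called with only the lfs and TIBA libraries in the fit. With all libraries the 4 were 11.1% of the 36 identifiers, against 4.6% of all genes called. Solyc12g006140 had lfs values below WT and TIBA values above WT, and its call in TIBA against WT was lost with no filter, with the replicate block and without TIBA replicate 2 or either WT library.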

How the results depend on the processing

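No alternative reversed a median or a summed ratio. The identifiers called for lfs against WT were 12 in all (14.2% of all genes). They became 19 with DESeq2 (18.9% of all genes) and 19 with only the 2 groups fitted (22.7%). The number also moved with 1 library left out. For TIBA against WT the 28 became 6 to 35 with 1 library left out. For lfs against TIBA the 4 became 13 with DESeq2, 0 with the replicate block, 0 with the 2 groups alone and 0 to 15 with 1 library left out. Genes called overall were 2810, 3681 and 912. They became 4494 (lfs against WT) and 369 (lfs against TIBA) with the 2 groups alone. For lfs against TIBA they became 566 with a mean of at least 100, 2008 with DESeq2 and 474 with the replicate block. Leaving out 1 library gave 536 to 4451, 654 to 6502 and 103 to 2734. The median log2 change of the identifiers ran from 0.47 to 1.13, from 1.03 to 1.79 and from -1.12 to -0.30. The summed ratio for lfs over TIBA was 0.674 with all libraries and 0.558 to 0.850 with 1 left out, the highest without TIBA replicate 2. With 1 library left out, 1 group has a lone library, assumed to vary like the others.

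Libraries with the same repeat number showed little shared deviation across genes. The correlation r was -0.14 for lfs with TIBA, 0.015 for lfs with WT and -0.051 for TIBA with WT. With so few replicates, these values cannot decide whether the repeat numbers pair the samples, which the labels do not say. With the replicate block, 9 identifiers were called in lfs (10.6% of all genes) and 24 in TIBA (13.8%), each against WT. A crossed replicate block on the 4 lfs and TIBA libraries was added after seeing the data. It matched lfs replicate 1 with TIBA replicate 2, the libraries already seen to be higher for the module. It called 12 of 36 identifiers and 1320 genes (6.66% of all genes tested). Because the matching follows that shift, the 12 calls are no separate evidence of a difference.

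Among 18 named identifiers over 3 comparisons, 704 alternative values kept direction and call, 85 lost the call, 28 gained it and 5 changed sign. The sign changes came from leaving out 1 library. For lfs over WT, the log2 value then ran from -0.15 to 0.71 for Solyc02g070970 and from -0.30 to 0.50 for Solyc03g005760, both lowest without lfs replicate 1. For lfs over TIBA it ran from -1.21 to 0.29 for Solyc02g085950, highest without lfs replicate 2, and from -0.14 to 0.17 for Solyc07g044860, lowest without TIBA replicate 1. None of the 5 values with a changed sign was called, with or without that library. The cause of changes under DESeq2 and the block was not tested.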
